A study of Drosophila melanogaster with 36 samples.

Results

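The 10 genes described here encode core proteins of autophagy and its best known cargo adaptor: Atg1, Atg13, Atg17, Atg6, Atg9, Atg5, Atg7, Atg8a, Atg8b and ref(2)P. They were chosen by name for their role, but with earlier results of these data known. Each has 1 line among the 13820 gene identifiers of the deposited table, CG10967, CG7331, CG1347, CG5429, CG3615, CG1643, CG5489, CG32672, CG12334 and CG10360 in the same order. All 10 passed the filter on missing values. They were followed over genotype, day and dye in thoraxes of *Drosophila melanogaster*.

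Autophagy encloses cytoplasm, protein aggregates or organelles in a double membrane, the autophagosome, which fuses with the lysosome, where the content is broken down. The Atg1 kinase complex starts the process, a lipid kinase complex with Atg6 marks the membrane, Atg9 carries lipids to it, and a conjugation system with Atg7 and Atg5 couples Atg8 proteins to the growing membrane. In muscle, autophagy removes damaged mitochondria and misfolded proteins, and both too little and too much of it are linked to wasting. mRNA ratios such as those below measure transcripts and not the flux of autophagy.

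Control flies carried the muscle driver alone (Mhc-Gal4/+), and the other flies expressed mammalian PABPN1 with an expanded alanine tract in muscles through the same driver (UAS-PABPN1-17ala/+; Mhc-Gal4/+), a model of oculopharyngeal muscular dystrophy (OPMD). Adult thoraxes were taken at days 2, 6 and 11, and the series gives 3 extracts of 50 thoraxes for each of the 6 conditions. Each of the 36 arrays set thorax RNA against a common reference, a pool of the control RNA at day 2, with the thorax RNA in Cy5 on replicates 1 to 3 and in Cy3 on replicates 4 to 6. None of these flies expressed PABPN1 without the expansion, the control lacked the UAS transgene, and the thorax also holds tissues other than muscle.

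The values are normalized log ratios, read as log2 of thorax over reference, so that 0 is the level of the reference pool. The direction of the ratio is not stated in the sources used here. It was taken from GstD1, a glutathione transferase gene whose reporter was raised in these flies, and whose ratio at day 2 lay between 2.27 and 2.53 on the PABPN1-17ala arrays and between -0.17 and 0.46 on the control arrays. For replicate 1 of PABPN1-17ala at day 2, 1 label names the control genotype and the others name PABPN1-17ala. Its GstD1 ratio was 2.39 and it was used as PABPN1-17ala. The series gives 3 extracts and 6 arrays for each condition, so a Cy5 and a Cy3 array probably share an extract. The dyes were therefore fitted separately with limma, and a gene was called only where both dyes gave the same sign and the larger p of both, adjusted over 13791 genes, was below 0.05. The p-values measure the spread between arrays of a dye.

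No member was called between PABPN1-17ala and control at any day. The count was 0 of 10 at day 2, where 0.950% of all genes tested were called, 0 of 10 at day 6 (1.60% of all genes) and 0 of 10 at day 11 (1.18%). At an unadjusted p below 0.05 in both dyes, 1 member was higher (Atg13; 2.12% of all genes) and 1 lower (Atg8a; 1.82%) at day 2. By the same rule 0 were higher (2.84%) and 1 was lower (Atg8a; 2.09%) at day 6, and 0 were higher (3.37%) or lower (2.62%) at day 11. The 10 log2 fold changes had a median of -0.0075, -0.016 and -0.063 at the 3 days in turn, beside -0.014, -0.0078 and 0.032 for all genes tested. Averaged over the 3 days, again 0 of 10 were called (3.18% of all genes), and at an unadjusted p below 0.05 Atg8a and Atg9 were lower (3.84% of all genes) and 0 members were higher (3.86%).

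**Figure D1:**
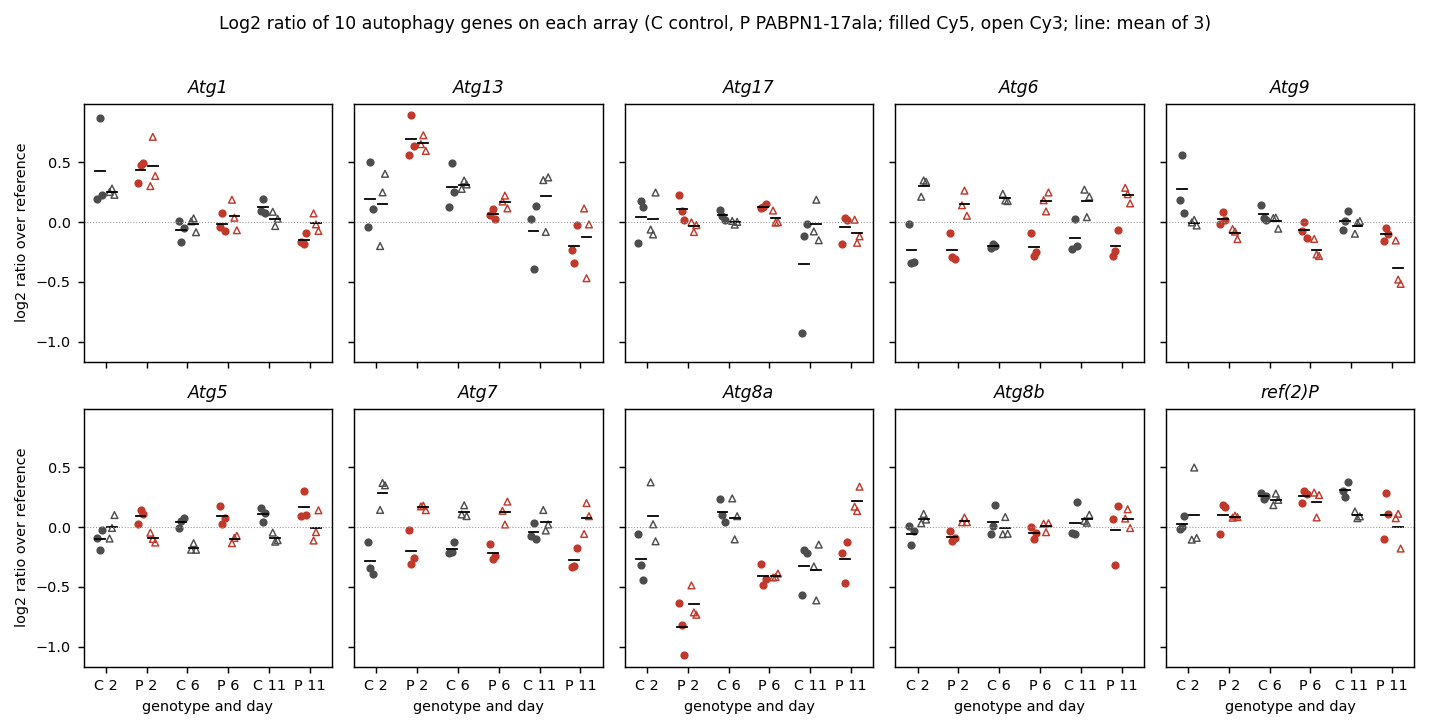
Log2 ratio over the reference of each of the 10 genes on each of the 36 arrays, by genotype (C, control, grey; P, PABPN1-17ala, red) and day. Filled circles are Cy5 arrays, open triangles Cy3 arrays, and lines are means of 3 arrays. Atg8a lies lower in PABPN1-17ala flies at days 2 and 6, Atg13 higher at day 2, and Atg6 splits by dye.

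Atg8a encodes the main ubiquitin-like protein of the autophagosome membrane, the fly counterpart of the LC3 and GABARAP proteins of mammals. It had the largest genotype difference of the 10 genes at days 2 and 6. At day 2, the ratios of control flies were -0.054, -0.32 and -0.44 on the Cy5 arrays and 0.37, 0.024 and -0.12 on the Cy3 arrays. Those of PABPN1-17ala flies were -0.63, -0.82 and -1.07 with Cy5 and -0.49, -0.71 and -0.73 with Cy3. All 6 PABPN1-17ala arrays lay below every control array of either dye. The log2 fold change was -0.65, or 63.6% of the control level, with -0.57 ± 0.13 (SE, n = 3 arrays per condition) on Cy5 and -0.74 ± 0.13 on Cy3, and missed the threshold (limma, adjusted p = 0.0624). Its size was above that of 98.6% of all genes tested at day 2. The call depended on the setting: without PABPN1-17ala replicate 1, the array with the conflicting label, the adjusted p was 0.0295, and after quantile normalization within each dye it was 0.0271. Over the 12 fits that left out 1 array each, it ran from 0.0295 to 0.352 and was below 0.05 in 1. Over the 12 other settings tried it ran from 7.84e-05 to 1 and was below 0.05 in 5. Those settings include a turned sign of the Cy3 arrays and 1 fit of all 36 arrays, which counts both dyes of an extract as separate samples.

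At day 6, the control ratios of Atg8a were 0.24, 0.10 and 0.039 with Cy5 and 0.24, -0.10 and 0.091 with Cy3, against -0.30, -0.48 and -0.44 and -0.42, -0.42 and -0.39 in PABPN1-17ala flies. The groups again did not overlap on either dye. The log2 fold change was -0.51, or 70.3% of control, and missed the threshold (limma, adjusted p = 0.107).

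At day 11, the dyes disagreed in size for Atg8a. On Cy5, the control ratios were -0.56, -0.19 and -0.21 and the PABPN1-17ala ratios -0.22, -0.46 and -0.12, which overlap. On Cy3, they were -0.33, -0.61 and -0.15 against 0.17, 0.13 and 0.34, which do not. The log2 fold change was 0.054 (95% confidence interval -0.23 to 0.34) with Cy5 and 0.58 (0.30 to 0.86) with Cy3 (limma, adjusted p = 1). The difference of Atg8a was thus negative on both dyes at days 2 and 6. At day 11 both estimates were positive, but only the Cy3 interval was wholly so. The change of the genotype effect from day 2 to day 11, 0.97, was not called (limma, adjusted p = 0.315).

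Flight muscle genes were read on the same arrays. For 9 structural genes tested, among them the myosin heavy chain gene Mhc, the log2 fold changes had a median of 0.095, -0.49 and -0.83 at the 3 days in turn, and the only call was TpnC4, a troponin C gene, at -1.84 at day 6 (limma, adjusted p = 0.000309). In whole thoraxes, fewer cells of a type and less RNA per cell cannot be told apart. At day 2 the 9 values ran from -0.88 to 0.45, with 5 higher and 4 lower on both dyes. No gene of the lists for fat body, hemocytes, neurons, trachea and epidermis, gut or germ line was called between the genotypes at any day. The part of tissue composition in the values of the autophagy genes was not tested.

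**Figure D2:**
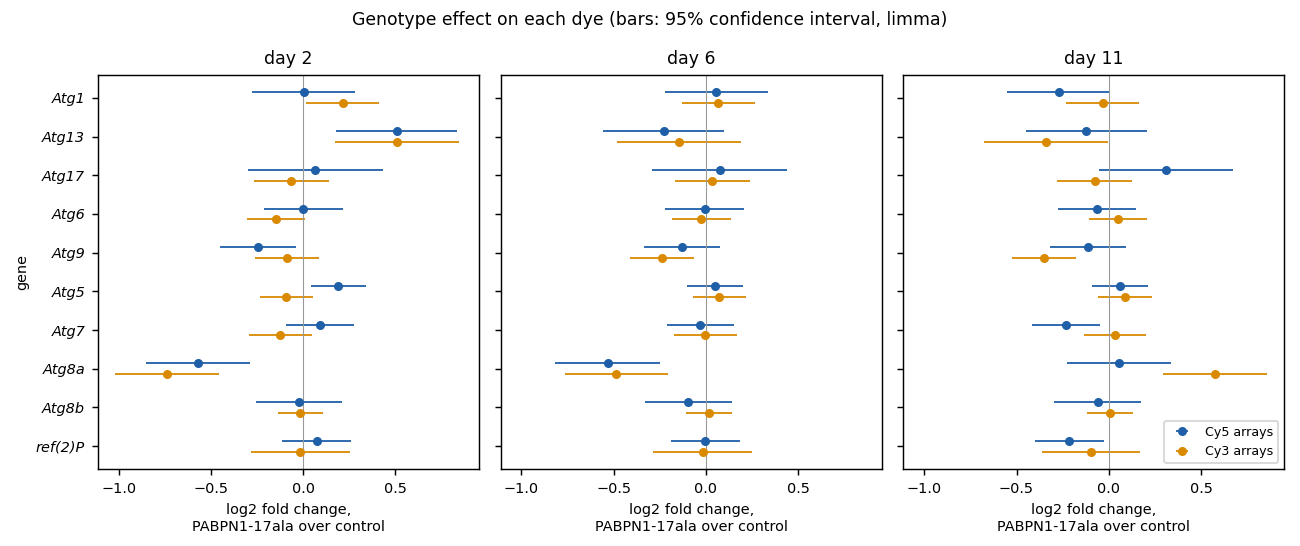
Log2 fold change of PABPN1-17ala over control for each gene at days 2, 6 and 11, fitted with limma on the Cy5 arrays (blue) and on the Cy3 arrays (orange), with 95% confidence intervals. Both intervals of Atg8a lie below 0 at days 2 and 6, and its Cy3 estimate at day 11 is 0.58.

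The initiation complex holds the Atg1 kinase, its regulatory subunit Atg13 and the scaffold Atg17, which stands for FIP200 of mammals. Atg13 was the member with the largest positive difference at day 2. Its control ratios were -0.039, 0.50 and 0.11 with Cy5 and -0.20, 0.25 and 0.40 with Cy3, against 0.56, 0.89 and 0.64 and 0.65, 0.73 and 0.60 in PABPN1-17ala flies. Every PABPN1-17ala array lay above every control array. The log2 fold change was 0.51 on each dye (SE 0.15 with Cy5 and 0.16 with Cy3), or 142% of control. It was not called (limma, adjusted p = 0.305), although quantile normalization gave 0.0281 (range over 12 settings 0.00288 to 1, below 0.05 in 2). Without PABPN1-17ala replicate 1 the log2 fold change was 0.54 (limma, adjusted p = 0.263). At day 6 the order was the opposite. The control arrays ran from 0.13 to 0.50 with a median of 0.30, the PABPN1-17ala arrays from 0.023 to 0.22 with a median of 0.11, and the groups did not overlap within a dye. This difference of -0.19 was not called, and nor was that of -0.23 at day 11, where the groups overlapped (limma, adjusted p = 1 for both).

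Atg1 and Atg17 were not called between genotypes at any day. The sign of the difference varied between days for Atg1 and between dyes for Atg17. For Atg1 the log2 fold change was 0.11, 0.062 and -0.15 at days 2, 6 and 11. Leaving out 1 array moved the day 2 value to between 0.047 (without PABPN1-17ala replicate 5) and 0.22 (without control replicate 2, which stood at 0.87), and it was 0.050 and 0.057 without control replicates 1 and 3. The dyes were unequal at day 2, with 0.0035 on Cy5 and 0.21 on Cy3, and at day 11, with -0.27 (95% interval -0.55 to 0.0081) and -0.033 (-0.23 to 0.16). For Atg17 the dyes gave 0.067 (Cy5) and -0.064 (Cy3) at day 2, and 0.31 and -0.076 at day 11. Its log2 fold change was 0.0015, 0.054 and 0.12 at the 3 days. The value at day 11 rests on 1 control array, replicate 1, at -0.93, while the other 5 ran from -0.15 to 0.19, and without it the difference was -0.027.

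Atg6, the fly Beclin, and Atg9, the transmembrane protein of autophagosome formation, act around the nascent membrane. Atg9 was lower in PABPN1-17ala flies on both dyes at each day. Its log2 fold change was -0.17, -0.18 and -0.23 at days 2, 6 and 11, and at day 2 it was -0.097 without control replicate 2, which stood at 0.56. At day 6 the control arrays ran from -0.055 to 0.14 (median 0.033) and the PABPN1-17ala arrays from -0.28 to -0.0022 (median -0.13), with no overlap within a dye. Averaged over the days it was -0.19, or 87.4% of control, which was not called (limma, unadjusted p = 0.0102, adjusted p = 0.211). For Atg6 the difference was between -0.073 and -0.0067.

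Neither conjugation enzyme was called at any day. For Atg5, which is joined to Atg12 to form the ligase for Atg8, the log2 fold change was 0.050, 0.061 and 0.074, and at day 2 the dyes had opposite signs, 0.19 with Cy5 and -0.091 with Cy3. For Atg7, the activating enzyme of both conjugation branches, it was -0.016, -0.017 and -0.10, and at day 11 the Cy5 arrays gave -0.23 (95% interval -0.42 to -0.050) and the Cy3 arrays 0.033 (-0.14 to 0.20).

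Atg8b, the second Atg8 gene of the fly, which is known for its use in the male germ line, had a log2 fold change of -0.019, -0.040 and -0.027 at the 3 days. ref(2)P encodes the fly counterpart of sequestosome, which binds both ubiquitin and Atg8a and whose protein piles up where autophagy is blocked. Its control arrays had medians of -0.0060, 0.25 and 0.19 at the 3 days, against 0.089, 0.27 and 0.091 in PABPN1-17ala flies. The groups overlapped at all 3 days. The log2 fold change was 0.030 at day 2 (95% interval -0.11 to 0.26 with Cy5 and -0.28 to 0.25 with Cy3; 0.13 without control replicate 5, which stood at 0.50), -0.011 at day 6 and -0.15 at day 11, where the interval was -0.40 to -0.026 with Cy5 and -0.36 to 0.17 with Cy3. These intervals leave room for differences of the size seen for Atg9.

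Arrays without overlap within each dye can be counted for all genes. At day 2, 1 member was wholly higher (Atg13; 1.91% of all genes tested were) and 1 wholly lower (Atg8a; 2.00% of all genes). At day 6, 3 members were wholly lower (Atg13, Atg9 and Atg8a; 4.62% of all genes) and 0 higher (5.78%). At day 11 there was none in either direction, where 2.16% and 1.39% of all genes lay wholly higher and lower. With 10 genes, these shares cannot be read closely.

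Age within a genotype was the comparison with calls. In PABPN1-17ala flies, 3 of 10 members were called between day 2 and day 11, where 3.94% of all genes were. Atg13 and Atg1 were called lower at day 11 (1.81% of all genes were) and Atg8a higher (2.13%). In control flies, 0 of 10 were called between these days (1.55% of all genes), and 0 of 10 in either genotype between days 2 and 6 (1.78% of all genes in PABPN1-17ala flies and 0.580% in control flies).

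Atg13 ran from 0.56 to 0.89 at day 2 in PABPN1-17ala flies, with a median of 0.64, and from -0.47 to 0.11 at day 11, with a median of -0.13. Its log2 change was -0.84, or 55.9% of day 2 (limma, adjusted p = 0.00769), and in control flies -0.10 (adjusted p = 1). Atg1 went from between 0.30 and 0.71 at day 2 (median 0.43) to between -0.18 and 0.073 at day 11 (median -0.083). These ranges do not overlap. The change was -0.53 in PABPN1-17ala flies (limma, adjusted p = 0.018) and -0.27 in control flies, where it was not called (limma, unadjusted p = 0.0344, adjusted p = 0.749). In control flies it was -0.38 between days 2 and 6 (unadjusted p = 0.0106, adjusted p = 0.525). Without control replicate 2 of day 2, these control values were -0.16 at day 11 and -0.27 at day 6.

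Atg8a moved the other way. Its PABPN1-17ala arrays had medians of -0.72, -0.42 and 0.0054 at the 3 days. The last lies between the dyes, which ran from -0.46 to -0.12 with Cy5 and from 0.13 to 0.34 with Cy3. The log2 change from day 2 to day 11 was 0.71, or 164% (limma, adjusted p = 0.0222). In control flies the medians were -0.086, 0.096 and -0.27, and the change was -0.25 (adjusted p = 1). Whether age acted differently in the genotypes was tested by the change of the genotype effect. No member was called: from day 2 to day 11 the count was 0 of 10 (0.290% of all genes), and so it was from day 2 to day 6 (0.239%) and from day 6 to day 11 (0.0435%). The other 7 members, none of them called, had log2 differences between -0.21 (Atg9) and 0.081 (Atg5) from day 2 to day 11 in PABPN1-17ala flies, and between -0.22 (Atg17) and 0.14 (ref(2)P) in control flies, where Atg17 was at -0.076 without control replicate 1 of day 11. For Atg13 the change of the genotype effect from day 2 to day 11 was -0.74 (limma, adjusted p = 0.502) and for Atg1 -0.26 (adjusted p = 1).

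The 3 calls with age were not equally firm. Leaving out PABPN1-17ala replicate 2 or 3 at day 2 or replicate 1 at day 11 left 1 call, Atg13, and a fit of only the conditions compared left 0, with Atg13 at an adjusted p of 0.0698. Of the 12 fits without 1 array each, Atg13 was called in 12 and Atg1 and Atg8a in 8 each. Without replicate 1 of day 2, the array with the conflicting label, all 3 were called. In the same comparison 6 of 9 flight muscle genes were called lower in PABPN1-17ala flies (1.81% of all genes). In control flies 3 of 9 were, where 1.55% of all genes were called in either direction. On both dyes 9 of 9 and 6 of 9 lay lower, with a median log2 change of -1.58 and -0.96. The part of flight muscle content in the values of Atg1, Atg13 and Atg8a was not tested.

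**Figure D3:**
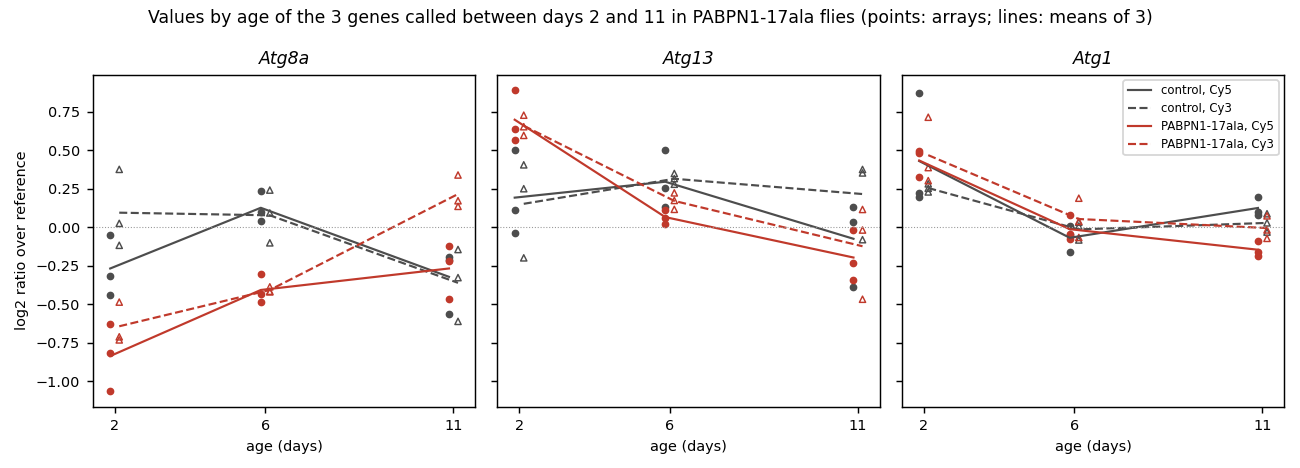
Log2 ratio over the reference against age in days for Atg8a, Atg13 and Atg1, with 1 point for each array and lines through the means of 3 arrays (grey, control; red, PABPN1-17ala; solid with circles, Cy5; dashed with triangles, Cy3). In PABPN1-17ala flies Atg13 goes from a median of 0.64 at day 2 to -0.13 at day 11 and Atg1 from 0.43 to -0.083. Their Atg8a median goes from -0.72 to 0.0054, with the dyes apart at day 11 (Cy5 -0.46 to -0.12, Cy3 0.13 to 0.34).

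The members did not vary as a group. Over the 36 arrays, after each dye's mean was removed, the 45 correlations between pairs of members ran from -0.60 (Atg9 and Atg5) to 0.70 (Atg6 and Atg7), with a median of -0.015. Atg1 and Atg13 correlated at 0.59 and Atg8a with Atg13 at -0.47. The arrays share the reference and, within a condition, probably their extracts, so these values are descriptions. The tested genes most like Atg8a by this measure were Akr1B (r = 0.87), CG8993 (0.75), mRpL52 (0.73), lncRNA:CR31781 (0.72) and ND-B14 (0.68). For ref(2)P they were Sirt1 (0.76), CG10345 (0.75), Ugt302C1 (0.72), bur (0.69) and scaf6 (0.69). Akr1B had a genotype difference of -0.46, -0.32 and 0.30 at the 3 days, and Sirt1 of -0.012, 0.0035 and -0.24. These genes were picked for their correlation over the same arrays, so some likeness of these values is built in. At day 11, CG8993 was at 0.032, mRpL52 at 0.56, lncRNA:CR31781 at -0.13 and ND-B14 at 0.083.

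Atg6 and Atg7 followed the dye more than the sample. Atg6 ran from -0.35 to 0.023 on all 18 Cy5 arrays and from 0.042 to 0.35 on all 18 Cy3 arrays, a full separation that 1.01% of all genes tested had. For Atg7 the medians were -0.21 with Cy5 and 0.14 with Cy3. Both also followed the median of the 23 spots without a fly gene, with r = 0.82 for Atg6 and 0.88 for Atg7 over the 36 arrays, higher than for 98.6% and 99.6% of all genes. Within a dye, r was 0.61 and 0.42 for Atg6 and 0.67 and 0.75 for Atg7. For Atg8a it was 0.17 over all arrays. Genotypes were compared within a dye, so an offset alike on all arrays of a dye cancels. The spots' median was not alike on all: on the Cy5 control arrays it ran from -0.40 to -0.12 at day 2. At day 11 it ran from -0.067 to 0.051 there and from -0.12 to -0.057 in PABPN1-17ala flies. On Cy3 at day 11 it ran from -0.20 to 0.029 in control and from -0.053 to 0.15 in PABPN1-17ala flies. How far the ratios of Atg6 and Atg7 track their transcripts was not tested.

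**Figure D4:**
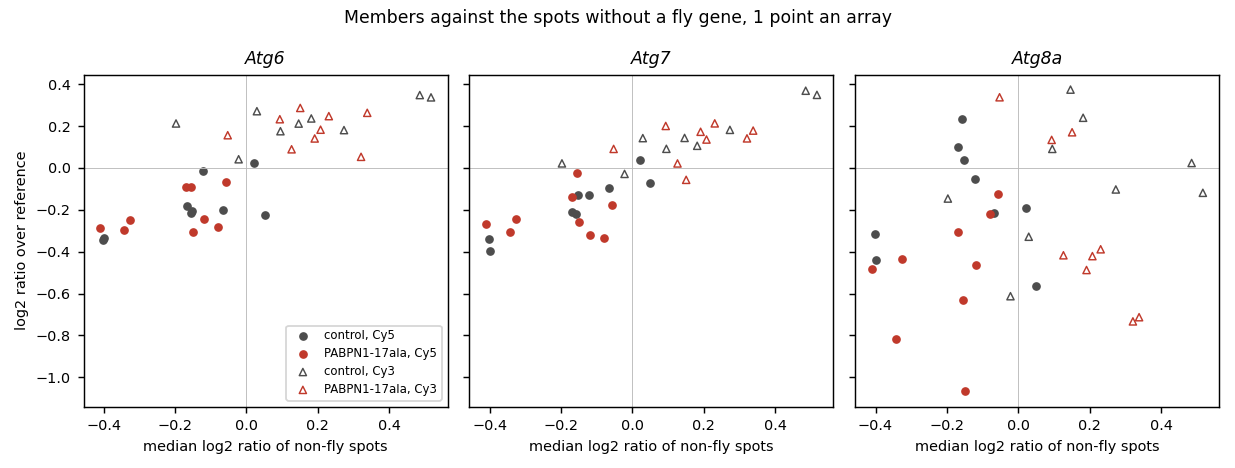
Log2 ratio over the reference of Atg6, Atg7 and Atg8a against the median log2 ratio of the 23 spots without a fly gene, with 1 point for each array (grey, control; red, PABPN1-17ala; filled circles, Cy5; open triangles, Cy3). Atg6 and Atg7 rise with the spots (r = 0.82 and 0.88), Atg8a does not (r = 0.17).

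Around these members, 56 further identifiers of autophagy and its control were read by role. This list too was chosen with earlier results of these data known, so its counts are descriptions. At day 2, 3 were called higher (0.667% of all genes) and 1 lower (0.283%). The counts were 1 higher (0.935% of all genes) and 1 lower (0.667%) at day 6, and 1 higher (0.754%) and 2 lower (0.428%) at day 11. The medians were -0.036, -0.0069 and -0.0079. Uvrag, a partner of Atg6 in the lipid kinase complex, was higher by 1.15 at day 2 (limma, adjusted p = 0.0228): its control arrays ran from -0.33 to -0.0085 and its PABPN1-17ala arrays from 0.49 to 1.45. At days 6 and 11 its difference was 0.10 and -0.11. None of the lipid transfer, conjugation or lysosomal protease genes was called.

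Of the regulators, Thor, which encodes the translation repressor that TOR holds in check, was higher by 1.25 at day 2 and 1.17 at day 11 (limma, adjusted p = 0.0487 and 0.0346), and its 0.77 at day 6 was not called (adjusted p = 0.182). S6k, the kinase that TOR activates, was higher by 0.72 at day 2 (adjusted p = 0.0163). Pink1, the mitochondrial kinase that starts mitophagy, had a log2 fold change of -0.96, -1.26 and -1.21 at the 3 days (adjusted p = 0.0191, 0.00141 and 0.00274). lt, which encodes a subunit of the HOPS complex for fusion with the lysosome, was lower at day 11, at -0.78 (adjusted p = 0.0268), and stv, the co-chaperone of chaperone-assisted autophagy in muscle, higher at day 6 by 0.39 (adjusted p = 0.0112). Several of these calls depended on single arrays. At day 2, of the 12 fits that left out 1 array each, Uvrag was called in 9, S6k in 8, Pink1 in 7 and Thor in 2, and without PABPN1-17ala replicate 3 none of the 4 was. In as many such fits at the other days, Thor was called in 6 at day 11 (adjusted p up to 0.163), lt in 8 (up to 0.156) and stv in 10 at day 6 (up to 0.068), while Pink1 was called in all 12 at each of these days.

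**Figure D5:**
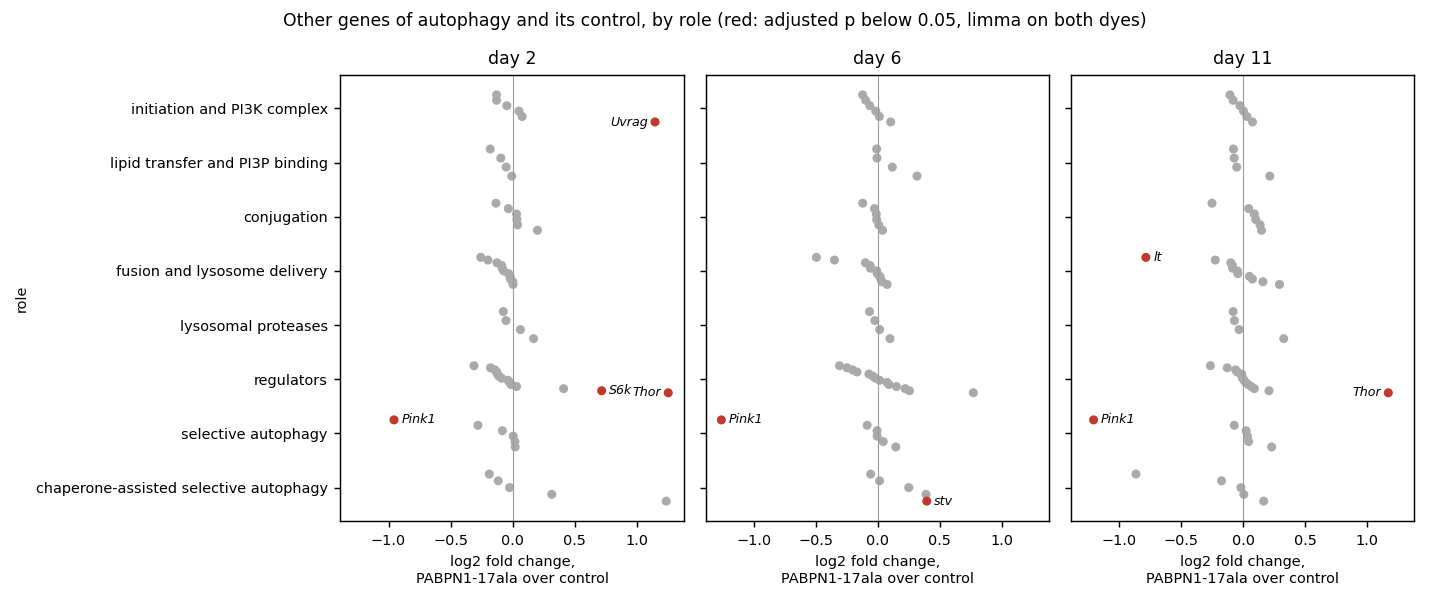
Log2 fold change of PABPN1-17ala over control at days 2, 6 and 11 for 56 further identifiers of autophagy and its control, by role, with 1 point for each identifier. Red points are called (adjusted p below 0.05, limma on both dyes) and named: Pink1 is lower at all 3 days, and Thor is called higher at days 2 and 11.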

How the data were processed

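The authors deposited 1 normalized log ratio per gene and array, read here as log2. Log base, direction, background correction and normalization are not given in the sources used here. Signal intensities were not used, and precision is limited by how many arrays there are. Of 13820 identifiers, 12047 were paired with a symbol by locus tag and 1153 by synonym (names of release 6). Every identifier has 1 line. Genes needed a value on 2 or more of the 3 arrays of every condition and dye, which 13791 had. limma 3.58.1 in R 4.3.3 fitted the 18 arrays of each dye with 6 condition means, moderating the variances. Both dyes were averaged for the log2 fold change. The less significant dye gave p, set to 1 for opposite signs, and p was adjusted by Benjamini-Hochberg over all genes (threshold 0.05). The procedure was tested on simulated data with independent arrays, which does not cover arrays that share an extract. No array pair of 630 was identical. The members and lists were chosen with earlier results of these data known. Named genes are all members, called genes of the wider list with the highest and lowest at each day, and the 5 genes most like Atg8a and ref(2)P. Alternatives were other fits, dyes, scalings, filters and thresholds, and leaving out each array.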

Additional observations from a re-analysis of the deposited data

Results flagged for a closer look

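In 5 of 60 groups of 6 arrays (a member in a condition), 1 array stood far from the other 5. The cutoff for this takes the 6 values as independent. These groups mix both dyes and probably share extracts, so no rate by chance can be set beside the 5. Atg1 was at 0.87 on control replicate 2 at day 2, with the other 5 between 0.19 and 0.28, and Atg9 was at 0.56 on the same array, with the others between -0.028 and 0.19. Atg17 was at -0.93 on control replicate 1 at day 11, with the others between -0.15 and 0.19. ref(2)P was at 0.50 on control replicate 5 at day 2, with the others between -0.11 and 0.089. Atg8b was at -0.32 on PABPN1-17ala replicate 2 at day 11, with the others between -0.0082 and 0.18.

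Of the wider list, Hsc70-4, which encodes a constitutive chaperone, had a genotype effect that differed between days. It was 1.24 at day 2 and -0.86 at day 11, neither called (limma, adjusted p = 0.0775 and 0.502), and the difference of -2.10 was called (adjusted p = 0.0113).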

How the results depend on the processing

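The count of called members between genotypes, 0 at each day and for the mean over days, rose under several settings. With all 36 arrays in 1 fit, which counts both dyes of an extract as separate samples, it was 2, 1, 1 and 2 at days 2, 6, 11 and for the mean. Calls among all 13791 genes rose too, from 131, 221, 163 and 439 to 559, 717, 1351 and 1335 in the same order. With Cy5 alone the members' count was 1 at days 2 and 6 and for the mean (304, 377 and 880 of all genes). With Cy3 alone it was 1, 2 and 1 at days 2 and 11 and for the mean (305, 441 and 741). After quantile normalization it was 2 at day 2 and 1 for the mean (199 and 484 of all genes). It was 1 at day 2 without genes of low spread (156 of the genes kept). With only the conditions compared it was 1 at day 6 (482 of all genes). For the comparisons below, all genes called under these settings were not counted. With age, the control counts of 0 became 1 and 1 (days 6 and 11 over day 2) in 1 fit and 1 at day 11 with either dye alone. The PABPN1-17ala count of 0 at day 6 became 2 in 1 fit and 1 with Cy5 alone, Cy3 alone or only the conditions compared. That of 3 at day 11 became 0 with only the conditions compared or the Cy3 sign turned and 1 at a threshold of 0.01. Small moves of a count above 0 are not listed by setting. Over the 12 settings the day 11 count ran from 0 to 4, and Atg9 had an adjusted p below 0.05 (limma) in 2. The changes of the genotype effect, 0 each, became 1, 2 and 1 in 1 fit (day 6 minus 2, 11 minus 2 and 11 minus 6) and 1 and 1 for the last 2 with Cy3 alone. Leaving out 1 array gave 0 to 1 called at day 2 and 1 to 3 for day 11 over day 2 in PABPN1-17ala flies, and 0 otherwise.

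The wider list's calls at days 2, 6 and 11 were 4, 2 and 3 of 56, where 131, 221 and 163 of all 13791 genes were called. They became 8, 4 and 5 in 1 fit (559, 717 and 1351 of all genes). With Cy5 alone they were 7 and 8 at days 2 and 11 (304 and 1716), and with Cy3 alone 4 at day 6 (424). With only the conditions compared they were 0, 5 and 0 (45, 482 and 0). Without moderation they were 1 at days 2 and 11 (73 and 68), and after quantile normalization 1 at day 11 (63). They were 0 each with the Cy3 sign turned (0 each), and 0, 1 and 1 at a threshold of 0.01 (67, 123 and 62). Leaving out 1 array gave 0 to 4, 1 to 2 and 1 to 4: at day 2, 1 without control replicate 1 or 3, 2 when control replicate 5 or any of PABPN1-17ala replicates 2 and 5 was dropped, and 0 without PABPN1-17ala replicate 3; at day 6, 1 when control replicate 1 or PABPN1-17ala replicate 3 was dropped; at day 11, 1 when any of control replicate 4 and PABPN1-17ala replicates 5 and 6 was dropped.

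Between conditions of a dye, deviations of same-numbered arrays correlated at -0.22 to 0.28 (median 0.018). Those of arrays with other numbers correlated at -0.26 to 0.21 (median -0.0051). Whether a Cy5 and a Cy3 array of a condition share an extract was not tested by this. With the replicate block, the members' counts stayed 0 between genotypes and 3 for day 11 over day 2, and the wider list's were 3, 2 and 3.

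A change of sign was listed only for results called or at an unadjusted p below 0.05. All 26 such changes came from turning the sign of the Cy3 arrays, under which 0 of all genes tested were called at each day. At day 2 they were Atg13 (-0.00037), Atg8a (0.085), Uvrag (-0.21), S6k (-0.13), Thor (-0.22), Pink1 (0.067), stv (-0.015) and Hsc70-4 (-0.21), at day 6 lt (0.048), Pink1 (0.093) and stv (-0.0077), and at day 11 Thor (-0.095) and Pink1 (0.045). For the mean they were Atg9 (0.031), Uvrag (-0.10), lt (0.045), S6k (-0.086), Thor (-0.10), Pink1 (0.068) and stv (-0.044). Atg8a was at -0.15 for day 11 over day 2 in PABPN1-17ala flies. For the genotype effect at day 11 minus day 2 they were Atg13 (0.11), Atg8a (-0.35), Uvrag (0.11) and S6k (0.053), and for day 11 minus day 6 Atg8a (-0.24). Results that were not called changed sign in 121 further cases under these settings and in 137 with 1 array left out. The 26 changes follow from the setting: with the Cy3 sign turned, the mean of both dyes changes sign where the Cy3 effect is larger in size. The cause of the further changes was not tested.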

Other observations

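The reference was pooled from control flies at day 2, yet Atg1 lay above 0 on all 6 control arrays of that day, from 0.19 to 0.87 (mean 0.34 ± 0.26, SD, n = 6 arrays). Of all genes tested, 2.05% had all 6 of these arrays above 0, and 98.9% had a mean nearer to 0. The comparisons of genotype and age set arrays against arrays and do not use the reference as a group.

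With age in PABPN1-17ala flies, 1 of the 56 further identifiers was called higher (2.13% of all genes were) and 5 lower (1.81%) between days 2 and 11. In control flies 0 were called (1.55% of all genes). Of the 6 genes, Hsc70-4 was called for the change of the genotype effect between these days, and Uvrag and S6k were not (limma, adjusted p = 0.11 and 0.15). Uvrag fell by 1.17 on the log2 scale, Hsc70-4 by 1.37, S6k by 0.81, Akt by 0.52 and stv by 0.27, and CG5676 rose by 0.88 (limma, adjusted p = 0.00477, 0.00474, 0.000141, 0.0442, 0.0369 and 0.0106). These comparisons share the day 2 arrays with the genotype comparison of that day.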
